A study of Python bivittatus with 8 samples.

Results

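A set of 107 genes stood lower in the fed than in the fasted left ventricle of Burmese pythons (Python bivittatus) at all 3 times sampled after a meal, of 21368 genes in the table. The members were chosen from the measured levels, on the scale log2(CPM + 1), where CPM is the counts scaled to a common library total of 1000000. A gene entered when its fasted mean was at least 3 and its mean at 1, 4 and 6 days after feeding was lower by at least 1.5-fold on this scale. Every fed library also had to lie below both fasted libraries. The contrasts of each fed time with fasting therefore describe the choice. Test calls of members in these contrasts are given as description only. The differences between the fed times, on which the rule sets no direction, were tested. The rule does ask for a low level at each fed time, so genes not chosen this way are no matched background.

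Poly-A RNA of wild-type (WT) snakes of about 2 kg was sequenced from left ventricle in 8 libraries, 2 for each of 4 conditions. These were a fast of 28 days without a meal, and days 1, 4 and 6 after rodents weighing 25% of the snake's mass had been fed, written 1DPF, 4DPF and 6DPF for days post-fed. All fed snakes had gone through the same 28-day fast first. The design text calls 1DPF the growing heart, 4DPF early regression and 6DPF later regression. The labels give 6 snakes for sequencing and proteomics together, fewer than the 8 libraries, and do not tie libraries to snakes, so p-values measure the spread between libraries, which may be technical in part.

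A python that eats after weeks without food enlarges its heart within days and then lets it shrink again. In vertebrate muscle, fasting is known to raise genes of fat use, protein breakdown and autophagy, many of them under FoxO transcription factors, which insulin signalling turns off after feeding; the series' title names FoxO1. Genes of such a kind would be high in the fasted heart and lower in the fed one, but the deposited table gives genes as numbers and does not pair them with names. No identifier was given a name or a role here, the ventricle could not be checked against heart muscle markers, and lists of atrophy, metabolic or cell type genes were not analysed here. The members are therefore described by level, course and length, with the identifiers of 4.

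Library totals lay between 33203808 and 42250755 counts, so 1 count was worth 0.0237 to 0.0301 CPM. Of the 21368 genes, 10540 had a fasted mean of at least 3 (about 7 CPM). Of these 10540 genes, 10.6% had every fed library below both fasted ones, and 107, or 1.02%, met all criteria. All 107 passed the filter on low counts and entered the test.

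Few of the genes that met the criteria at both early times also met them on day 6. By the same criteria applied to 1 time alone, 1311 genes were lowered at 1DPF, 1050 at 4DPF and 268 at 6DPF. Of the 633 lowered at both 1DPF and 4DPF, the 107 members, 16.9%, were also lowered at 6DPF. A gene that missed the criteria at 6DPF could still lie below its fasted level, so these counts do not measure a return. Seen from the last time, 112 genes were lowered at both 1DPF and 6DPF, and 107 of them, 95.5%, were lowered at 4DPF too. Of the 193 lowered at both 4DPF and 6DPF, the 107 are 55.4%. The smallest of a member's 3 differences was the one at 6DPF in 82 of 107 genes. The 2 members nearest the threshold had smallest differences of 0.5873 and 0.5897, and the nearest 2 genes outside it had 0.5848 and 0.5837, all at 6DPF. In all, 82 genes outside lay within 0.1 of the threshold, and 51 of the members did. At the floor for the fasted mean, the nearest member had 3.001 and the nearest gene outside 2.98. The set was sensitive to single libraries: the rule chose 199 genes without fasted replicate 1, 89 of them among the 107, and 193 without 6DPF replicate 1, 93 of them among the 107. Without fasted replicate 2 it chose 127 genes and kept 69 of the 107, and without 6DPF replicate 2 it chose 97 and kept 73.

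The lowered genes as a whole took a smaller part of the reads after feeding, least at 4DPF. Their share of the counts was 2.82% and 3.13% in the fasted libraries, 1.29% and 1.52% on day 1, 1.11% and 1.06% on day 4, and 1.64% and 1.71% on day 6. The lowest libraries were the pair at 4DPF, and the pair at 6DPF lay above those of both earlier fed times. Much of the share came from few genes: the 5 most abundant members held 57.6% of the set's fasted counts. Without the most abundant one the share averaged 2.11% ± 0.170 in fasted libraries, 1.02% ± 0.0547 on day 1, 0.857% ± 0.0428 on day 4 and 1.19% ± 0.00206 on day 6 (SD, n = 2 each), the same order of groups. Fewer cells of a type and less RNA per cell cannot be told apart in such bulk samples.

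**Figure D1:**
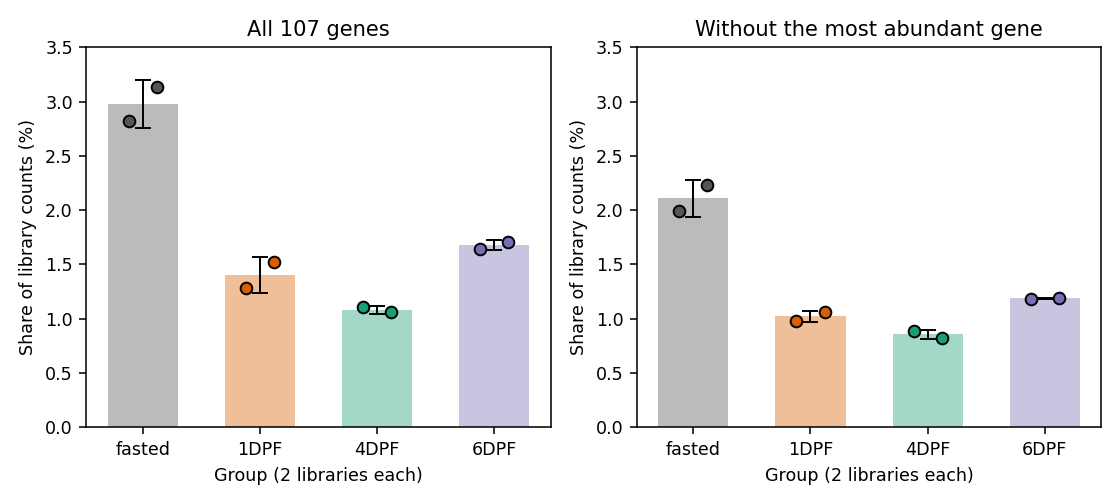
Share of each library's counts held by the 107 lowered genes, with and without the most abundant of them, in percent. Bars are means of 2 libraries, error bars SD and points single libraries, in the order fasted, 1DPF, 4DPF and 6DPF; the fasted libraries, at 2.82% and 3.13%, lie above every fed library, and the 4DPF libraries, at 1.11% and 1.06%, are the lowest.

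Gene by gene, the distance from the fasted level was about 2-fold on days 1 and 4 and smaller on day 6. The median difference from fasted was -1.05 at 1DPF, with a range of -0.59 to -5.31, -1.13 at 4DPF, with -0.59 to -3.39, and -0.71 at 6DPF, with -0.59 to -2.69. On day 1, 56 members stood at least 2-fold lower, on day 4 69 and on day 6 21, while 13 did so at every time. Over the 10540 genes with a fasted mean of at least 3, the median differences were 0.0048, -0.059 and 0.0075 at the 3 times. The typical member had a mean of 53.1 CPM in fasted ventricle, 20.9 CPM on day 1, 19.5 CPM on day 4 and 29.0 CPM on day 6 (medians over the 107 members). The lowest fasted library of a member lay above its highest fed library by a median of 0.40 (range 0.010 to 1.58), so that for some members the groups are barely apart.

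The rule asks for no test. Over all 16986 genes with enough counts, edgeR's quasi-likelihood test called fewest lower than fasted at 6DPF, and the members followed this. Of the 107, 87 were called lower than fasted at 1DPF (9.66% of all genes tested), 78 at 4DPF (4.02% of all) and 4 at 6DPF (0.0471% of all, 8 genes in number), each at an adjusted p under 0.05. Because the rule used these contrasts, the counts only describe the members. The 87 dropped when either fasted or either 1DPF library was left out. The median fitted log2 change over the members was then between -1.19 and -0.99, against -1.10 with all libraries. The 78 dropped to 1 when either fasted library was left out, to 3 for 4DPF replicate 1 and to 25 for 4DPF replicate 2. The 4 at 6DPF dropped to 0 when any fasted or 6DPF library was left out (edgeR; 72 to 84 members at an unadjusted p under 0.05). Limma voom called 0 there (98 members at an unadjusted p under 0.05) and DESeq2 69, of 805 genes it called. In edgeR with all libraries, 104 members had an unadjusted p under 0.05 at 1DPF, 102 at 4DPF and 98 at 6DPF, all lower. Over all tested genes, 16.7%, 13.6% and 7.78% were lower at that level, in the same order of times. These counts too largely follow from the choice of the members.

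**Figure D2:**
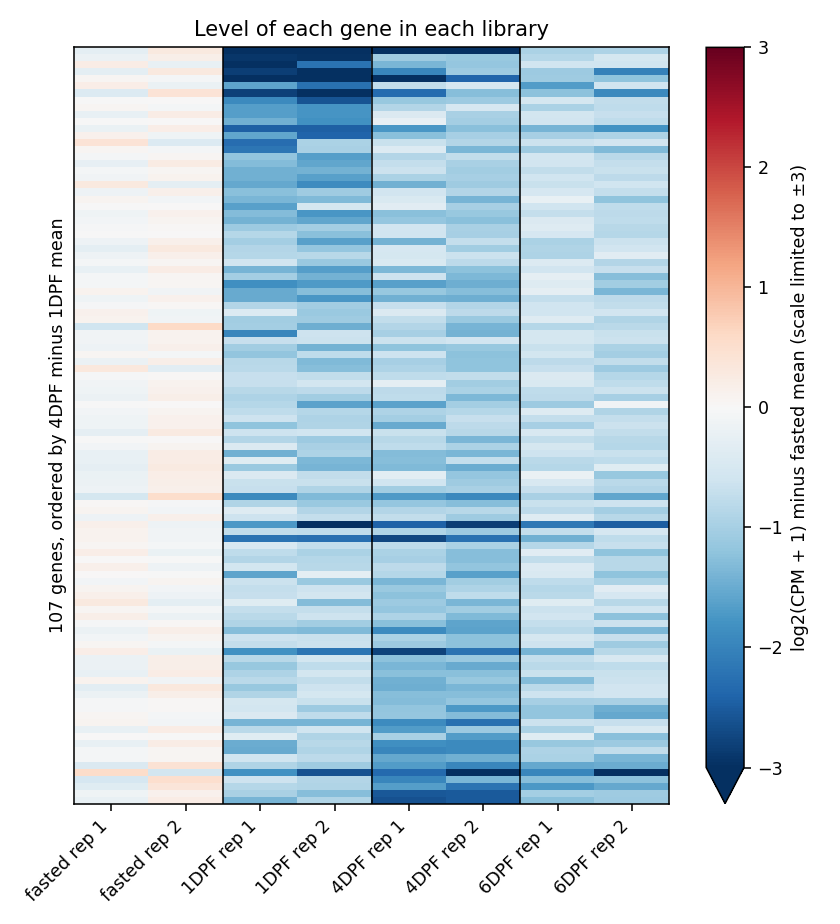
Level of each of the 107 lowered genes (rows, ordered by the 4DPF minus the 1DPF mean) in each of the 8 libraries (columns), as log2(CPM + 1) minus the gene's fasted mean; blue is lower. The genes at the top are darkest at 1DPF, those at the bottom at 4DPF, and most are paler at 6DPF, where the median difference from fasted was -0.71.

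The members did not share one course among the fed times. The mean was lowest at 4DPF in 61 members, at 1DPF in 44 and at 6DPF in 2. These are 57.0%, 41.1% and 1.87% of the members, against 32.9%, 35.5% and 31.6% of the 10540 genes with a fasted mean of at least 3. The 10540 genes were not chosen for low fed levels, so the choice itself can bring part of this difference. The commonest order was 4DPF lowest, then 1DPF, then 6DPF, with 46 members, followed by 1DPF, 4DPF, 6DPF with 36 and 4DPF, 6DPF, 1DPF with 15. These orders come from means of 2 libraries. Both libraries of the lowest time lay below all 4 other fed libraries in 26 of the 61 members lowest at 4DPF in 27 of the 44 lowest at 1DPF, and in 0 of the 2 lowest at 6DPF. These are 42.6% of the members lowest at 4DPF, against 29.4% of the genes lowest then among the 10540, and 61.4% of the members lowest at 1DPF, against 54.6%. Taken over all 107 members they are 24.3% for 4DPF, 25.2% for 1DPF and 0% for 6DPF, where 9.67%, 19.4% and 13.8% of all 10540 genes had their libraries apart in this way. In members lowest at 1DPF the median differences from fasted were -1.46, -0.95 and -0.69 at 1DPF, 4DPF and 6DPF. In 8 of these 44 members the 6DPF mean lay below the 4DPF mean. In members lowest at 4DPF the medians were -0.84, -1.22 and -0.77, so that day 6 stood near day 1. Both classes were formed by the lowest fed mean, so the dip at that time is part of their definition. The span between a member's highest and lowest fed mean had a median of 0.58 on the log2 scale (range 0.054 to 4.38), against 0.41 over the 10540 genes. A span under 0.25, a nearly level course, was seen in 18 members (16.8%) and in 25.2% of the 10540 genes.

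Day 6 was the highest fed time in 82 members, or 76.6%, against 40.4% of the 10540 genes. These are the same 82 members whose smallest difference from fasted was the one at 6DPF, so this is no separate result. The 10540 genes were not chosen for low levels after feeding and are no matched background. By the criteria for 1 time alone, fewer genes were lowered at 6DPF (268) than at 1DPF (1311) or 4DPF (1050), so the choice itself can bring such a difference. Both 6DPF libraries lay above all 4 earlier fed libraries in 28 members (26.2%), against 19.5% of the 10540 genes. The part of the drop that was made good by day 6, measured from the lowest fed mean to the fasted mean on the log2 scale, had a median of 38.4% (quartiles 24.0% and 52.0%). The most complete return was 82.4%, and 33 members had made good more than 50%. This measure has the fasted mean in it and is a description. It starts from the lowest of the fed means, so it cannot be negative. Replicate spread alone can make it positive where the fed course is level. The rule caps every member's return, since a gene that came closer than 1.5-fold to its fasted mean was not a member.

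The test between growth and later regression, 6DPF against 1DPF, compared the members' levels at these 2 times. All tested genes are no matched background for it, since the rule asked for low levels at both times. Their median fasted level was also lower, 13.3 CPM against 53.1 CPM in the members. The part of this level difference in the shares called was not tested. By the criteria for 1 time alone, fewer genes were lowered at 6DPF (268) than at 1DPF (1311). Of the 107 members, 24 (22.4%) rose at 6DPF and 1 (0.935%) fell, against 11.3% and 10.4% of all tested genes (edgeR quasi-likelihood, adjusted p under 0.05). The fitted log2 change was positive in 81 members, with a median of 0.20 (quartiles 0.0016 and 0.76), while the median over the 10540 genes was -0.03 (quartiles -0.35 and 0.33). Both 6DPF libraries lay above both 1DPF libraries in 45 members and below them in 7, where 32.1% and 33.2% of the 10540 genes did. The 24 dropped to 15 when 1DPF replicate 1 was left out, to 10 for 1DPF replicate 2 and to 11 for 6DPF replicate 2. The 1 that fell was not called without 1DPF replicate 1, without 6DPF replicate 2 or in a fit of the 2 groups alone (edgeR, with 32, 35 and 32 members at an unadjusted p under 0.05).

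At the onset of regression, 4DPF against 1DPF, members went both ways, as did all tested genes. Here 10 members (9.35%) rose and 3 (2.80%) fell, against 3.96% and 2.2% of all tested genes (edgeR, adjusted p under 0.05). As above, all tested genes had a lower median fasted level than the members. The median log2 change over the members was -0.04, equal to that of the 10540 genes, and 48 of 107 were positive. Both 4DPF libraries lay above both 1DPF ones in 30 members and below them in 37, against 23.7% and 38.2% of the 10540 genes. The 10 dropped to 4 when any fasted or 4DPF library was left out, to 5 for 1DPF replicate 1 and to 1 for 1DPF replicate 2. The 3 dropped to 1 when 1DPF replicate 2 or 4DPF replicate 2 was left out and to 0 for 4DPF replicate 1 (edgeR; 33 members at an unadjusted p under 0.05). A fit of the 2 groups alone called 0 in either direction (33 members at an unadjusted p under 0.05). DESeq2 called 17 members that rose and 10 that fell, of 2264 genes it called.

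From early to later regression, 6DPF against 4DPF, nearly all fitted changes pointed up, but hardly any passed the test. The log2 change was positive in 92 of 107 members (86.0%), against 50.0% of the 10540 genes, with a median of 0.28 (quartiles 0.081 and 0.54) against 0.00041. Only 1 member rose and 0 fell, where 0.053% and 0.0353% of all tested genes did (edgeR, adjusted p under 0.05). Without adjustment 27 members had an edgeR p under 0.05, all of them higher at 6DPF, against 7.74% of all tested genes higher and 8.08% lower. DESeq2 called 14 members higher and 0 lower, of 768 genes it called, and limma voom 2 higher and 0 lower, of 18. Here too, genes not chosen for low levels are no matched background, and all tested genes had a lower median fasted level than the members. The libraries did not overlap in 51 members, all higher at 6DPF, against 29.7% of the 10540 genes higher and 18.9% lower. The 1 call was lost without either fasted, either 4DPF or either 6DPF library (edgeR; 20 to 26 members at an unadjusted p under 0.05) and in a fit of the 2 groups alone (31 such members). The number of positive changes was 70 without 4DPF replicate 2 and 79 without 6DPF replicate 1.

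**Figure D3:**
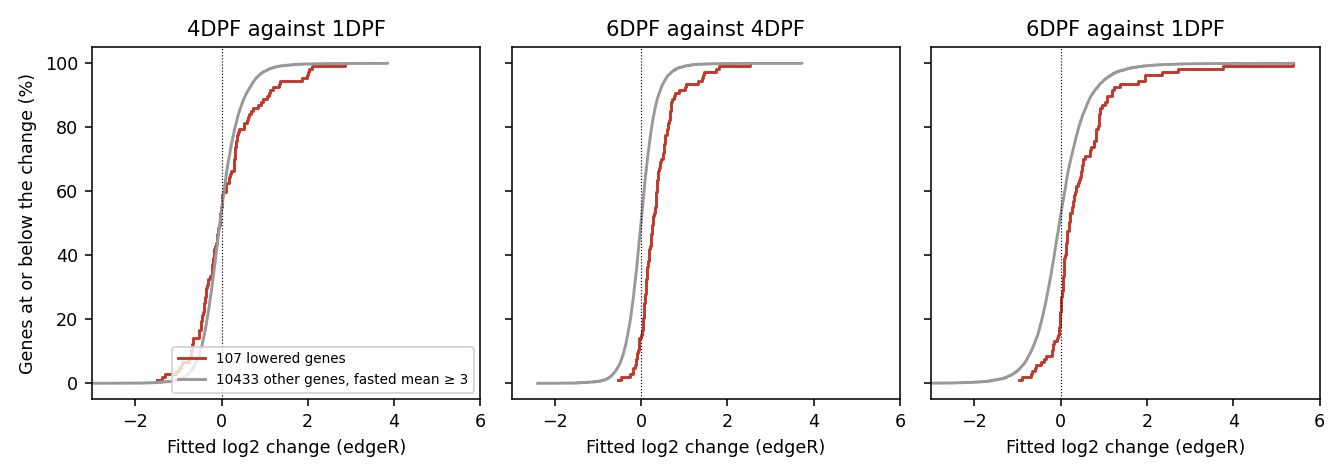
Cumulative distribution of fitted log2 changes (edgeR, x axis) between fed times for the 107 lowered genes (red) and for the other genes with a fasted mean of at least 3 (grey), as percent of genes at or below each change; changes beyond the axis are not drawn. The red curve lies right of the grey one for 6DPF against 4DPF (median 0.28) and 6DPF against 1DPF (median 0.20), and crosses it for 4DPF against 1DPF (median -0.04).

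The 3 comparisons between fed times share libraries and are not independent of each other. In all, 28 members were called in at least 1 of them and 79 in none. The matching share over all genes was not worked out. The comparison of 6DPF against 1DPF alone called 3683 of the 16986 genes tested, so the 28 are not read as a trait of the members. The 25 called higher at the later time in any comparison include gene 103052959, which was also called lower at 4DPF against 1DPF. These 25 had median levels of 57.1 CPM in fasted ventricle, 10.7 CPM on day 1, 14.6 CPM on day 4 and 29.9 CPM on day 6. The medians of the 79 were 53.1, 27.3, 25.4 and 30.1 CPM over the same groups. The other 3, called only lower at a later time, had medians of 19.3, 12.5, 7.71 and 9.28 CPM. The 25 and the 79 stood at nearly the same level in fasted ventricle and again at 6DPF, and lay apart at 1DPF and 4DPF. The sets were formed from calls between fed times, so the difference at 1DPF is part of their definition. The difference at 4DPF can follow from the same calls. The rule also bounds the level at 6DPF, where 82 members had their smallest difference from fasted and 44 lay within 0.1 of the threshold. The median differences from fasted at 6DPF were -0.70 in the 25 and -0.71 in the 79. The likeness at 6DPF can therefore follow from the rule and is not read as a result.

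The deepest dip and the widest return belonged to gene 103048176, which is 3332 bases long in the deposited table. It had 59.8 and 90.3 CPM in the fasted libraries, 1.22 and 0.590 CPM on day 1, 4.74 and 7.81 CPM on day 4, and 37.6 and 38.4 CPM on day 6. The 4 groups do not overlap, and the levels climb from 1DPF to 6DPF without reaching the fasted ones. It rose by a log2 change of 5.39 at 6DPF against 1DPF (SE 0.40, edgeR adjusted p = 0.00101) and of 2.86 at 4DPF against 1DPF (SE 0.38, edgeR adjusted p = 0.0151; 2.47 and 0.0756 without 1DPF replicate 2, 2.89 and 0.0813 in a fit of the 2 groups alone), and at 6DPF against 4DPF it had 2.53 (SE 0.33, edgeR adjusted p = 0.0607). Gene 103054253, 1439 bases long, took the same path. Its levels were 44.0 and 40.2 CPM in fasted, 1.92 and 0.837 CPM on day 1, 3.51 and 7.10 CPM on day 4, and 19.6 and 17.6 CPM on day 6. Here too no groups overlap, and the 6DPF pair lies well below the fasted pair. It rose by 3.75 at 6DPF against 1DPF (SE 0.42, edgeR adjusted p = 0.00203) and by 2.02 at 4DPF against 1DPF (SE 0.41, edgeR adjusted p = 0.0358). The second of these calls was lost without fasted replicate 1 or 2, 1DPF replicate 2, 4DPF replicate 2 or 6DPF replicate 1 or 2 (1.40 to 2.04, edgeR adjusted p between 0.054 and 0.135), with limma voom (2.00, adjusted p = 0.0612) and in a fit of the 2 groups alone (2.04, edgeR adjusted p = 0.128).

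The 2 largest falls between fed times were steps down at 4DPF against 1DPF in genes whose 6DPF libraries overlapped those of 1DPF. Gene 103048418, 534 bases long, had 53.4 and 72.8 CPM in fasted, 23.1 and 33.0 CPM on day 1, 9.36 and 9.97 CPM on day 4, and 25.4 and 28.8 CPM on day 6. The 4DPF pair is the lowest, and the 1DPF and 6DPF libraries overlap. It fell by 1.5 on the log2 scale at 4DPF against 1DPF (SE 0.24, edgeR adjusted p = 0.0241), a call lost without 1DPF replicate 2 (-1.15, edgeR adjusted p = 0.084) and without 4DPF replicates 1 and 2 (-1.43 and -1.55, edgeR adjusted p = 0.0996 and 0.065), and in a fit of the 2 groups alone (-1.47, edgeR adjusted p = 0.0813). Over all its alternatives the adjusted p ran from 2.08e-06 to 0.0996. Gene 103052959, 8209 bases long, had 199 and 237 CPM in fasted, 109.9 and 88.9 CPM on day 1, 36.7 and 37.0 CPM on day 4, and 107.0 and 103.8 CPM on day 6. Its 1DPF and 6DPF libraries overlap as well, and 4DPF is far below both. It fell by 1.38 on the log2 scale at 4DPF against 1DPF (SE 0.14, edgeR adjusted p = 0.00973) and rose by 1.45 at 6DPF against 4DPF (SE 0.14, edgeR adjusted p = 0.0312). It is the 1 member that passed the test between 6DPF and 4DPF. Its fall missed the threshold without 4DPF replicate 1 (-1.35, edgeR adjusted p = 0.0502) and in a fit of the 2 groups alone (-1.35, edgeR adjusted p = 0.0663). Its rise missed it when any fasted, 4DPF or 6DPF library was left out (1.38 to 1.49, edgeR adjusted p between 0.0668 and 0.245) and in a fit of the 2 groups alone (1.45, edgeR adjusted p = 0.104).

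**Figure D4:**
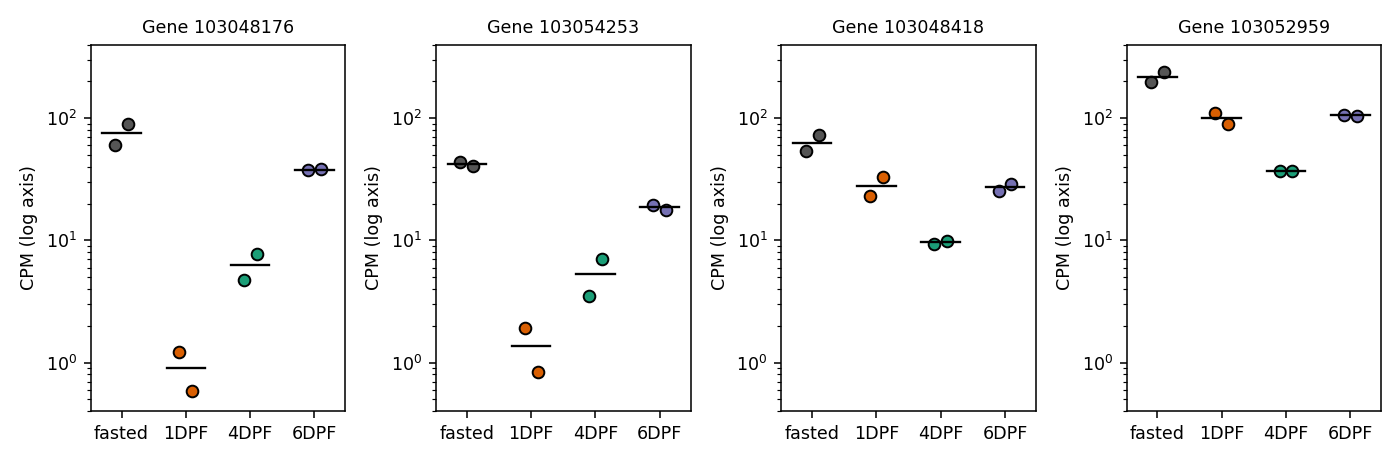
CPM (log axis) of the lowered genes with the 2 largest called rises (left) and the 2 largest called falls (right) between fed times, in fasted, 1DPF, 4DPF and 6DPF ventricle; points are libraries and lines means of 2. The first 2 genes are lowest at 1DPF, at 0.590 to 1.92 CPM, and the other two at 4DPF, at 9.36 to 37.0 CPM.

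Per length, the most abundant member ranked 6 among all genes of the fasted ventricle. It is 1718 bases long and averaged 9699 ± 554 TPM (transcripts scaled by the deposited gene length to a common total) in fasted ventricle, 4403 ± 1183 on day 1, 2481 ± 5.17 on day 4 and 5332 ± 143 on day 6 (SD, n = 2 each). In counts it had 8308 and 9050 CPM in the fasted libraries, 3040 and 4623 CPM on day 1, 2231 and 2316 CPM on day 4, and 4576 and 5184 CPM on day 6. The 6DPF pair overlaps the 1DPF pair and lies above the 4DPF pair. Its fitted log2 changes were -0.72 at 4DPF against 1DPF (SE 0.27, edgeR adjusted p = 0.143) and 1.04 at 6DPF against 4DPF (SE 0.27, edgeR adjusted p = 0.144), neither past the threshold. The second, 2763 bases long, had 3911 and 5367 CPM in fasted, 1631 and 2564 CPM on day 1, 1277 and 1219 CPM on day 4, and 2088 and 2165 CPM on day 6. Both of these are lowest at 4DPF, as are the next 4 by their means. The next 4 members by fasted TPM stood between 718 and 1099 TPM in fasted ventricle and between 134 and 404 TPM at 4DPF. At the other end, 9 members averaged under 10 CPM in fasted ventricle, and 36 averaged over 100 CPM.

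The members were longer, at the median, than the genes that could have entered, as were all genes whose fed libraries lay below the fasted ones. The median length was 3753 bases (quartiles 2383 and 5871) in the members, 3870 bases in the 1122 genes with no overlap, and 2982 bases (quartiles 1833 and 4546) over the 10540 genes with a fasted mean of at least 3. In 4 bins of equal size by length, with medians of 1245, 2385, 3669 and 6031 bases, members numbered 16, 23, 24 and 44 of 2635 genes each, or 0.607%, 0.873%, 0.911% and 1.67%. By fasted level, 4 such bins from low to high held 23, 21, 15 and 48 members. Over all 10540 genes, long genes stood lower relative to short ones in most fed libraries, while 6DPF replicate 1 was close to fasted replicate 1. The longest bin minus the shortest, each as the median difference from the fasted mean, was -0.04 and 0.04 in the fasted libraries, -0.07 and -0.14 on day 1, -0.18 and -0.35 on day 4, and -0.05 and -0.35 on day 6. The median of the longest bin itself lay between -0.27 and -0.04 in 5 of the fed libraries and at 0.03 in 6DPF replicate 1, and that of the shortest bin between 0.013 and 0.13 in all 6. The part of this shift in the choice of the long members was not tested; with each library's trend with length removed, an alternative added after the data were seen, the rule chose 97 genes, 81 of them among the 107. Within the set, the 16 members of the shortest bin had medians relative to fasted of -1.39 and -1.01 on day 1, -1.40 and -1.35 on day 4, and -1.002 and -0.72 on day 6. The 44 members of the longest bin had -0.95 and -1.05 on day 1, -0.94 and -1.10 on day 4, and -0.61 and -0.82 on day 6, so that the short members were the lower in 4 of the 6 fed libraries.

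**Figure D5:**
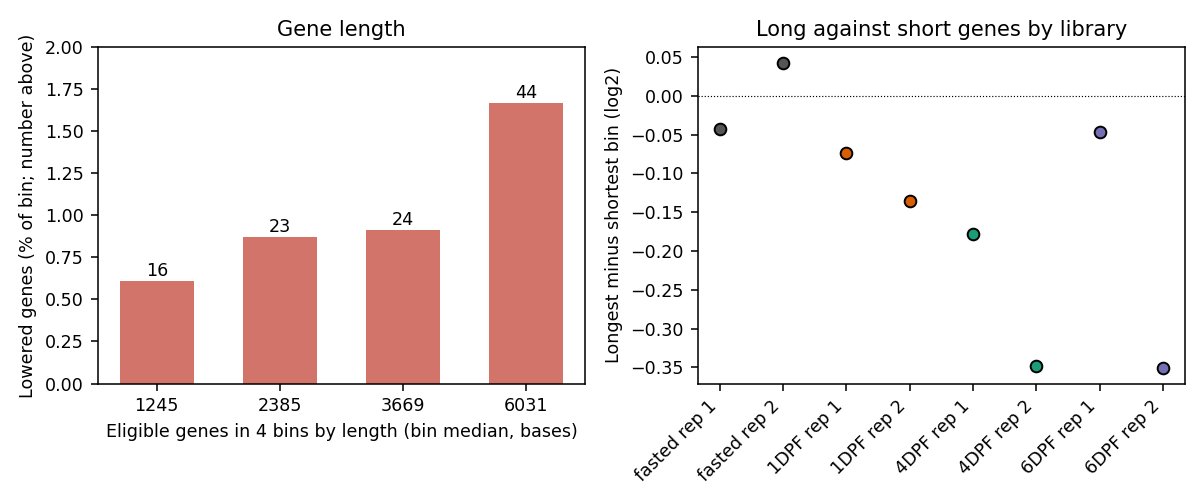
Left, share of genes in each of 4 length bins of the 10540 genes with a fasted mean of at least 3 that are among the lowered genes, in percent, with their number above the bar. Right, median difference from the fasted mean (log2) of the longest minus the shortest bin in each library; the share is highest in the longest bin, at 1.67%, and the difference runs from 0.04 in a fasted library to -0.35 at 4DPF and 6DPF.

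A core of 13 members stood at least 2-fold lower at every fed time. Their median levels were 63.3 CPM in fasted ventricle, 21.7 CPM on day 1, 10.6 CPM on day 4 and 27.1 CPM on day 6, and the mean was lowest at 4DPF in 9 of them and at 1DPF in 4. The member farthest below fasted at 6DPF, singled out after its values were seen, is 12292 bases long. It had 205 and 94.4 CPM in fasted, 38.9 and 21.9 CPM on day 1, 27.0 and 8.34 CPM on day 4, and 35.4 and 12.04 CPM on day 6. In every group its first library was the higher, and no change between fed times passed the test (edgeR adjusted p = 0.515, 0.850 and 0.703 for 4DPF against 1DPF, 6DPF against 4DPF and 6DPF against 1DPF). The next by the same measure, 5006 bases long, had 420 and 344 CPM in fasted, 114.7 and 44.0 CPM on day 1, 69.4 and 52.6 CPM on day 4, and 85.7 and 67.6 CPM on day 6. This gene shows hardly any return, with a fitted log2 change of -0.05 at 6DPF against 1DPF (SE 0.36, edgeR adjusted p = 0.934).

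Replicate spread limits what the single members show. The 2 libraries of a group differed by a median of 0.26 in fasted, 0.27 on day 1, 0.30 on day 4 and 0.25 on day 6 on the log2 scale, against 0.15, 0.15, 0.17 and 0.19 over the 10540 genes. They differed by more than 2-fold in 3, 7, 2 and 3 members in the same order of groups. The first library was the higher in 36 of the 107 members in fasted ventricle, 69 on day 1, 62 on day 4 and 64 on day 6. The median of the first minus the second library was -0.13, 0.14, 0.13 and 0.13 over the members, in the same order of groups. Over the 10540 genes it was -0.02, 0.04, 0.04 and 0.07.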

How the data were processed

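Raw counts were used as the authors deposited them, 1 whole number per gene and library, beside a gene length. The submitters' processing notes list Trimmomatic 0.36, HISAT2 2.1.0, SAMtools 1.8, featureCounts and also DESeq2 1.36.0, with no settings. Genome build, annotation, strand setting and treatment of multi-mapping reads: not given in the sources used here. Values of overlapping, antisense and near-identical genes are therefore uncertain. Columns were matched to samples by the description labels.

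CPM used the column totals. Counts were filtered with filterByExpr (minimum count 10, minimum total 15; 16986 genes kept), scaled with TMM factors of 0.962 to 1.07, and fitted with edgeR 4.0.16 (quasi-likelihood, R 4.3.3) over all 8 libraries, with group as the only term and 4 residual degrees of freedom, two-sided. Adjusted p is Benjamini-Hochberg over all genes tested, called under 0.05; SEs come from the fold change and F. The fit was also run on simulated counts whose spread was estimated from these data, so that run cannot check the model of the spread. No result here rests on it. Chi-square per degree of freedom between libraries of a group was 50.8 to 70.4, a spread beyond counting noise. Each library was treated as 1 replicate, though this spread does not show that the libraries are separate snakes. For want of symbols, the named genes are the 2 members that rose and the 2 that fell most among those called between fed times. Members and lists were chosen with earlier results of these data known. Alternatives were RLE factors, other filters, limma 3.58.1 (voom), DESeq2 1.42.0, the replicate number as a block, fits of 2 groups, each library left out, and other settings of the rule. Alternatives for the comparisons with fasted, and a loess fit (span 0.5, degree 1) that removes the trend with length, were chosen after seeing the data. Lists of named genes and promoter motifs could not be analysed here.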

Additional observations from a re-analysis of the deposited data

How the results depend on the processing

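The depth, 33203808 to 42250755 counts a library, leaves little counting error at most of these levels, and the 2 libraries a group limit the precision. Counting error is larger at the lowest fed levels. Gene 103048176 had 0.590 CPM in 1DPF replicate 2, where 1 count was worth 0.0246 CPM. Between fed times, 0 members were called against the direction of their call with all libraries under any alternative, though all alternatives reuse the same libraries. Against fasted the direction could hardly change, since the rule puts every fed library below both fasted ones. Leaving out 1 library gave 96 to 199 members by the rule. A fall of at least 1 gave 13 and a fasted mean of at least 5 gave 63, both by construction, and the other settings gave 97 (length trend removed) to 145 (TMM library sizes). On log2(CPM + 1), the median difference over the members was -0.10 for 4DPF minus 1DPF (-0.17 to -0.018 with 1 library left out). It was 0.32 for 6DPF minus 4DPF (0.23 to 0.43) and 0.21 for 6DPF minus 1DPF (0.17 to 0.30). With other library sizes, another pseudocount or the length trend removed, they were -0.103 to -0.029, 0.228 to 0.344 and 0.186 to 0.216, in the same order. These medians moved by less than the replicate spread, which was 0.135, 0.129 and 0.133. For 4DPF minus 1DPF that spread exceeds the size of the median itself, so the check says little there. For 1 library left out that spread is no yardstick, since it comes from the same 2 libraries a group.

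The ranges that follow leave out 1 library each. Genes changed against fasted were 716 to 3042 on day 1, 3 to 1258 on day 4 and 0 to 118 on day 6 (where 0, edgeR gave 1452 to 2707 genes an unadjusted p under 0.05). Genes changed between fed times were 15 to 812 (4DPF against 1DPF), 0 to 11 (6DPF against 4DPF; where 0, edgeR gave 2124 and 2429 genes an unadjusted p under 0.05) and 1838 to 3385 (6DPF against 1DPF). Members called lower than fasted were 35 to 88 on day 1, 1 to 76 on day 4 and 0 to 5 on day 6. Members called higher and lower were 1 to 9 and 0 to 2 (4DPF against 1DPF), 0 to 1 and 0 to 0 (6DPF against 4DPF), and 10 to 24 and 0 to 1 (6DPF against 1DPF).

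DESeq2 gave 2696 genes on day 4 and 805 on day 6 against fasted, 2264 (4DPF against 1DPF) and 768 (6DPF against 4DPF), where edgeR gave 1455, 70, 1046 and 15. Its members were 69 lower on day 6 than fasted, 17 higher and 10 lower (4DPF against 1DPF), and 14 higher (6DPF against 4DPF). Limma voom gave 0 genes (2746 with an unadjusted p under 0.05) and so 0 members on day 6 against fasted, and 2 members higher (6DPF against 4DPF). No filter on low counts gave 135 genes and 12 members on day 6 against fasted, and 33 genes and 3 members (6DPF against 4DPF). EdgeR on the 2 compared groups gave 191 genes and 12 members on day 6 against fasted, 0 and 0 (4DPF against 1DPF; 3758 genes with an unadjusted p under 0.05), 0 and 0 (6DPF against 4DPF; 2241 such genes), and 2193 genes with 0 members lower (6DPF against 1DPF; 5372 such genes). For none of these was the cause tested.

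Replicates are numbered 1 and 2 in every group, and no label says that a number links groups. Across genes, replicate differences correlated at 0.43 (4DPF with 6DPF), -0.34 (4DPF with 1DPF) and -0.20 (6DPF with 1DPF), and at -0.11 to 0.086 in pairs with fasted. The replicate block gave 670 genes and 5 members higher (4DPF against 1DPF), 0 genes and 0 members (6DPF against 4DPF; 2659 genes with an unadjusted p under 0.05) and 7 members lower on day 6 than fasted. Of the named genes it ended 2 calls, the rise of gene 103054253 at 4DPF against 1DPF (2.01, edgeR adjusted p = 0.0639) and that of gene 103052959 at 6DPF against 4DPF (1.45, edgeR adjusted p = 0.0700), which is the 1 member called there.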
